A study of Mus musculus with 3 samples.

Results

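SOX2 peaks that a peak caller still listed after deletion of Sox2 were described in mouse antral glands, the epithelial units of the distal stomach. The members are 566 of the 7111 wild-type peaks that were narrower than 1 kb and lay on chromosomes 1 to 19, or 7.96% (exact 95% interval 7.34 to 8.61). They were chosen by measured values: each shared at least 1 bp with a knockout peak that met the same width and chromosome limits. Each was paired with the knockout peak it overlapped by the most bases, which gave 565 of 856 such knockout peaks (66.0%) as partners. The whole lists held 7213 wild-type and 887 knockout peaks. Since the overlap itself made the choice, these counts are a description and carry no test.

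Wild-type animals were Rosa26WT; Sox2 fl/fl mice, whose Sox2 alleles are flanked by loxP sites and which have no Cre recombinase. Knockout animals were Rosa26CreER; Sox2 fl/fl mice, in which tamoxifen activates a Cre that is present in all tissues, so deletion was not limited to the stomach epithelium. Both genotypes, of mixed C57BL/6 x 129 background, were given tamoxifen when 8 weeks old, and their stomachs were collected 2 weeks afterwards. Chromatin was precipitated with the same goat anti-SOX2 antibody, with 1 library per genotype; no source used here gives the number of mice behind a library or the extent of recombination. A wild-type input library belongs to the series and was not analysed here.

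SOX2 is a transcription factor with a high-mobility-group domain that binds the minor groove of DNA and bends it. In the stomach it marks epithelial stem and progenitor cells and belongs to the genes that set the foregut apart from the intestine. In chromatin immunoprecipitation, a peak is a stretch of genome where sequenced fragments pile up after pull-down with an antibody. The same antibody used after deletion of its target gene shows which of these stretches are still listed.

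Each deposited peak has a score from the authors' peak caller, which ranks it within its list. Read depth is unknown for both libraries and the scale of the score is not stated. Knockout and wild-type scores are therefore set side by side, and a ratio of them serves only to order the pairs. Positions are on mouse build mm9, counted from 1. Peaks were not assigned to genes, because the tables of genes used here follow a later build.

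The members held most of the strongest wild-type peaks, and their knockout partners mostly sat near the floor of the knockout list. Wild-type scores of the 566 ran from 50.71 through a median of 249.62 (95% interval 231.44 to 268.08) to 2097.47. Knockout scores ran from 50.02 through a median of 70.3 (67.03 to 72.1) to 580.08. A knockout score of at least 100 was reached by 20.7% of members (17.4 to 24.2) and one of at least 200 by 20 (3.53%), whereas 498 (88.0%) had a wild-type score of at least 100. The 6545 wild-type peaks without a partner had a median score of 78.9 (77.31 to 80.47), and the 291 knockout peaks without a member had a median of 56.28 (55.31 to 57.45).

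**Figure D1:**
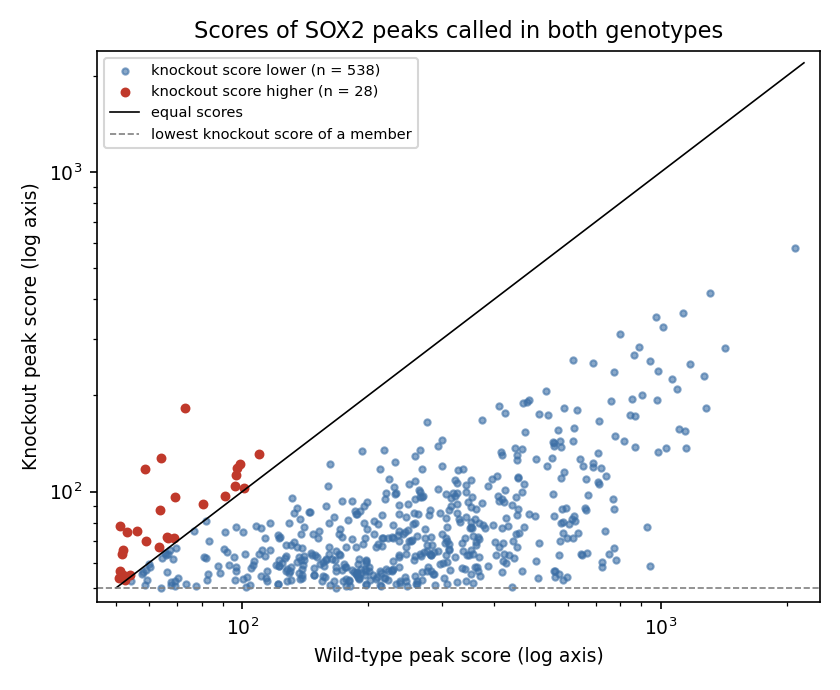
Wild-type score (x axis) against knockout score (y axis) of each of the 566 peaks called in both genotypes, both on log axes without units. The solid line marks equal scores, 28 points in red lie above it, and the dashed line marks the lowest knockout score of a member, 50.02.

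The peak at chr2:25035923-25036494 led both lists, scoring 2097.47 in the wild type against 580.08 in the knockout. Its knockout interval was 384 bp wide against 572 bp, and the midpoints lay 11 bp apart. Below it the order of the pairs diverged. At chr17:15345031-15345512 the wild-type score of 1427.13 was second among the 566, and the knockout score of 282.13 was number 8. The peak at chr19:10760115-10760810 scored 1314.85 and 419.45, and was second in the knockout. Of the wild-type leaders these are the ones that also ranked high in the knockout, together with chr10:43300272-43300975, which scored 1131.48 and 363.19 and stood at number 9 and number 3. That makes 4 members among the top 10 by both scores, 29 among the top 50 by both and 59 among the top 100 by both.

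The other 6 wild-type leaders stood lower among the knockout scores. The peak at chr1:140244890-140245601 scored 1285.76 and 182.53 and took place 29 of the 566. Its neighbour in the wild-type order, chr7:147307294-147307968, scored 1267.21 and 230.93 and took place 16. At chr2:178397044-178397583 the scores were 1175.25 and 251.11, for place 13. The lowest of the 10 in the knockout was chr14:15519734-15520268, with 1148.93 and 136.92 and place 57. A pair on chromosome 13 stayed close to each other in both lists: chr13:31419368-31419958 scored 1145.3 and 155.15, and chr13:31264291-31265094 scored 1106.51 and 157.13, for places 43 and 41.

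Members that ranked higher in the knockout than in the wild type completed the knockout leaders. At chr5:108494369-108494931 the wild-type score was 973.74 and the knockout score 351.24, number 18 and number 4 among the pairs. The peak at chr11:86887355-86887885 scored 1010.67 and 328.04. On chromosome 5, the narrow peak chr5:149864559-149864945 (387 bp) scored 797.68 and 311.8, place 30 in the wild-type order and place 6 in the knockout order. All of these kept a knockout score above 300. Next came chr19:24299393-24300326 with 885.39 and 283.38, where the knockout midpoint lay 182 bp from the wild-type midpoint in a peak of 934 bp. The peak at chr13:31400832-31401345 scored 865.06 and 267.26. The widest gap between the places among these 10 was at chr14:63796658-63797166, with scores of 618.15 and 259.12, numbers 65 and 10 of the wild-type and knockout orders. Each of the 20 members with a knockout score of at least 200 had a wild-type score of at least 530.81.

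Peaks with nearly the same wild-type score had widely different knockout scores. All 8 wild-type peaks that scored from 900 to 1000 were members, and their knockout scores ran from 58.69 through a median of 197.39 to 351.24. The highest was the chromosome 5 peak described above, with 351.24. It was followed by chr13:98421528-98422338 at 256.97, chr3:136525357-136526054 at 239.16 and chr6:114851227-114851877 at 200.93. The middle of the range held chr5:100435203-100435913 at 193.85 and chr8:64115370-64115967 at 132.76. Lowest of these peaks were chr1:54656998-54657820 at 77.55 and chr3:30047261-30047890 at 58.69, the latter with a wild-type score of 941.51. Their wild-type widths, from 563 to 823 bp, did not follow the knockout order, as the peak of 823 bp had a knockout score of 77.55 and the peak of 811 bp one of 256.97. This band of scores was picked after the values had been seen.

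Knockout scores also spread widely over all strong members, which include the peaks that scored from 900 to 1000. Of 116 wild-type peaks that scored 500 or more, 104 (89.7%, 82.6 to 94.5) were members, and 12 had no partner. Their knockout scores ran from 52.96 through a median of 121.76 (98.66 to 138.56) to 580.08, and 9 were under 60. The ratio of knockout to wild-type score ran from 0.062 to 0.42, with quartiles of 0.123 and 0.24. Across these peaks, Spearman's rho was 0.49 between the scores of a pair and 0.07 between the wild-type score and the ratio. Wild-type width and the ratio gave a rho of -0.17. Over all 566 members the rho was 0.49 between the scores, -0.84 between wild-type score and ratio and -0.63 between wild-type width and ratio. No knockout score under 50.02 is listed, so a low wild-type score cannot have a low ratio. These are correlations across peaks of 2 libraries, and peaks are not replicates.

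The 5 members with the lowest ratios were strong wild-type peaks, and 4 of them had a knockout score under the members' median of 70.3. The peak at chr3:30047261-30047890 had a ratio of 0.062. At chr3:14648511-14649167 the scores were 784.12 and 60.9, and at chr12:90980631-90981168 they were 724.56 and 58.25. The fourth was the chromosome 1 peak with a knockout score of 77.55, above that median. At chr12:110125042-110125657 the scores were 722.83 and 60.39. The lowest knockout score of any member, 50.02, belonged to chr11:71809448-71809898, whose wild-type score of 167.76 lay well above its own floor.

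At the weak end, the knockout score exceeded the wild-type score in 28 members (4.95%, 3.31 to 7.07) on 14 chromosomes. With depth and the scale of the score unknown, equal scores in both lists have no set meaning, so this cut only orders the pairs. Their wild-type scores ran from 50.71 to 109.82 and their knockout scores from 52.78 to 182.75. Members with a wild-type score up to 109.82 numbered 81, and no knockout score under 50.02 is listed, which bounds from below the partner that a weak wild-type peak can have. The median wild-type width of the 28 was 279.5 bp (265 to 317), beside 285 bp (272 to 317) for all members that scored between 50.71 and 91.19.

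The median ratio of the 28 was 1.18, and 4 had a ratio of at least 1.5. The highest was at chr15:59973294-59973692, which scored 72.84 in the wild type, place 525 of the 566, against 182.75 in the knockout, place 28. Its nearest other wild-type peak was 494 kb away, and the knockout interval lay wholly inside the wild-type interval. At chr9:61219889-61220202 the scores were 63.93 and 127.54. At chr9:46801171-46801396 they were 51.13 and 78.15, with an overlap of 95 bp. The ratio of 2.01 at chr6:133985466-133985745, from scores of 58.51 and 117.42, rests on an overlap of 36 bp. Its partner is also that of the neighbouring chr6:133985087-133985453, where the overlap was 261 bp and the wild-type score 213.72. This was the only knockout peak shared by 2 members. The fifth by ratio was chr17:87716639-87716871, with scores of 53.16 and 74.86. The members with the lowest wild-type scores were chr6:72603585-72603926, at 50.71 and 53.63, and chr17:35975206-35975470, at 51.07 and 56.28, besides the chromosome 9 peak at 51.13.

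The share of wild-type peaks that were members was higher in each successive bin of wild-type score. Bins were set to hold equal numbers of members. Between scores of 50.71 and 91.19, 57 of 3923 peaks (1.45%, 1.10 to 1.88) were members. In the middle bins the share was 15.5% (11.9 to 19.6) between 171.03 and 206.81 and 28.4% (22.2 to 35.1) between 250.02 and 300.79. Between 360.75 and 459.59 it was 56.6% (46.2 to 66.5), and from 649.53 upwards 57 of 62 peaks (91.9%, 82.2 to 97.3) were members. The knockout score of the members was similar over the lower bins. Its median was 62.07 (56.23 to 66.2) in the lowest bin and 58.3 (56.27 to 63.15) in the fourth. It was 74.9 (66.26 to 82.79) in the seventh bin and 143.74 (119.58 to 191.66) in the highest. Depth and genotype cannot be told apart in these shares, since each genotype is 1 library.

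**Figure D2:**
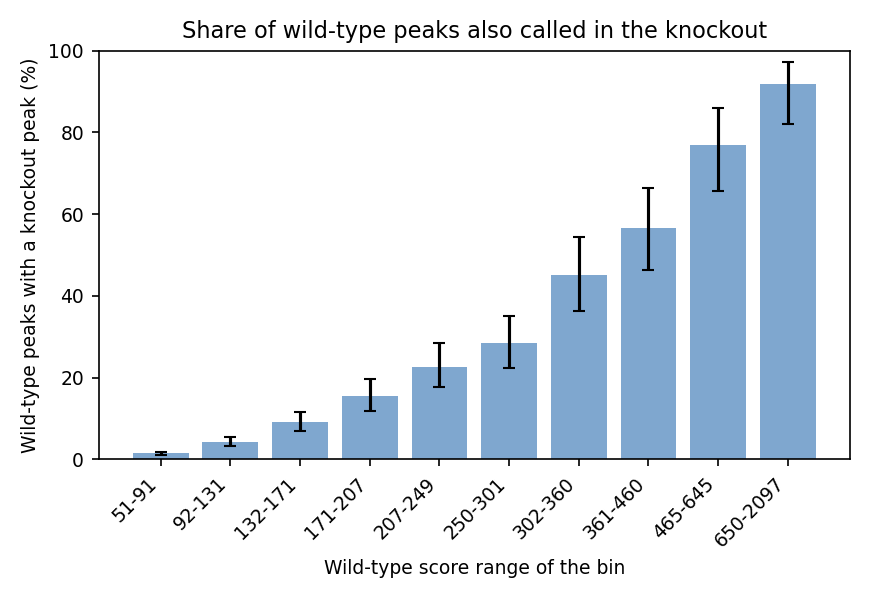
Percentage of wild-type peaks that overlapped a knockout peak (y axis), by wild-type score bin (x axis, range of the members' scores). Bars show the share and whiskers its exact 95% interval; the share is 1.45% in the lowest bin and 91.9% in the highest.

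The members were wider than other wild-type peaks over the whole list, but little of that was seen among peaks of like score. The median width was 462.5 bp (452 to 474) for members and 311 bp (308 to 315) for wild-type peaks without a partner. In the bin from 250.02 to 300.79 the medians were 471 bp (450 to 510) for members and 488.5 bp (470 to 513) for the others. Between 302.13 and 360.38 they were 492 bp (474 to 519) and 542.5 bp (497 to 564). In the lowest bin the order was the other way, with 285 bp (272 to 317) for members and 262 bp (259 to 265) for the others, and there the members also had the higher median score, 66.26 against 63.15. Members had the higher median score in some bins where they were narrower too. It was 329.145 against 323.475 between 302.13 and 360.38, and 416.85 against 405.4 between 360.75 and 459.59. Between 465.28 and 645.14 it was 569.95 against 488.85. Members had the smaller median in 7 of the 10 bins, and the difference ran from -50.5 to 23 bp. Of the 9 bins with intervals for both kinds of peak, the intervals overlapped in 8. The intervals cover counting error only, and width is not wholly independent of the choice, since an overlap of 1 bp is easier to meet for a longer interval.

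**Figure D3:**
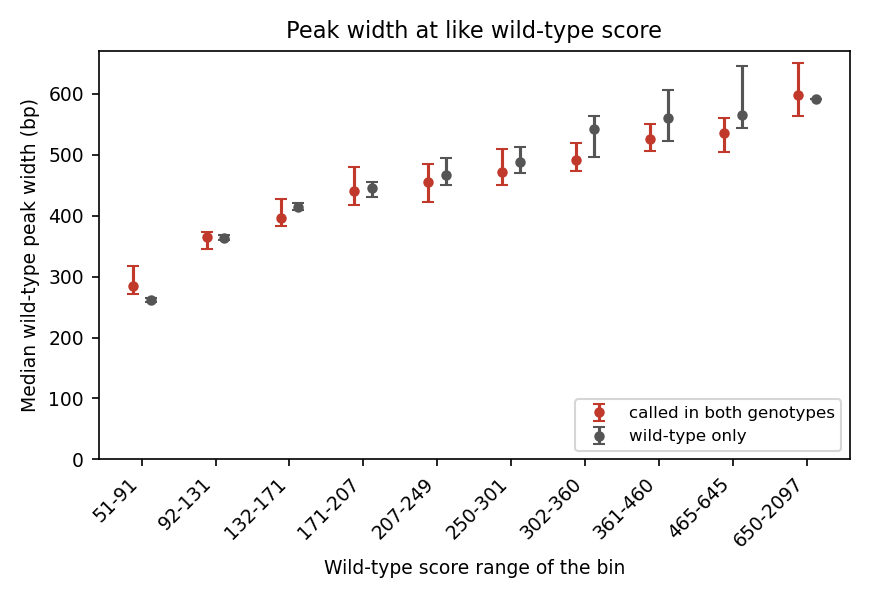
Median width of wild-type peaks in bp (y axis) by wild-type score bin (x axis), for peaks called in both genotypes (red) and for wild-type-only peaks (grey); whiskers are exact order-statistic 95% intervals, and the highest bin has no interval for its 5 wild-type-only peaks. Between scores of 302 and 360 the medians are 492 and 542.5 bp.

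Knockout peaks were narrower and sat near the middle of their wild-type peaks. The median knockout width was 261.5 bp (253 to 269), and the knockout peak was the narrower of the pair in 543 of 566 members (95.9%). In 470 members (83.0%, 79.7 to 86.0) the knockout interval lay wholly inside the wild-type interval, and the reverse held in 5. The midpoints were a median of 34 bp apart (30.5 to 38.5), at most 50 bp apart in 369 members (65.2%) and at most 100 bp apart in 524 (92.6%). The knockout midpoint lay at the lower coordinate in 281 members and at the higher in 282, and the midpoints were equal in 3. Overlap chose the pairs, which by itself limits how far apart the midpoints can lie and favours contained intervals. These positions therefore describe the pairs and carry no test. Widths follow scores within each list, and across the 566 pairs Spearman's rho was 0.72 for the wild type and 0.67 for the knockout. Over all members the wild-type intervals covered 267.1 kb, the partners 157.6 kb and the overlaps 153.6 kb.

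**Figure D4:**
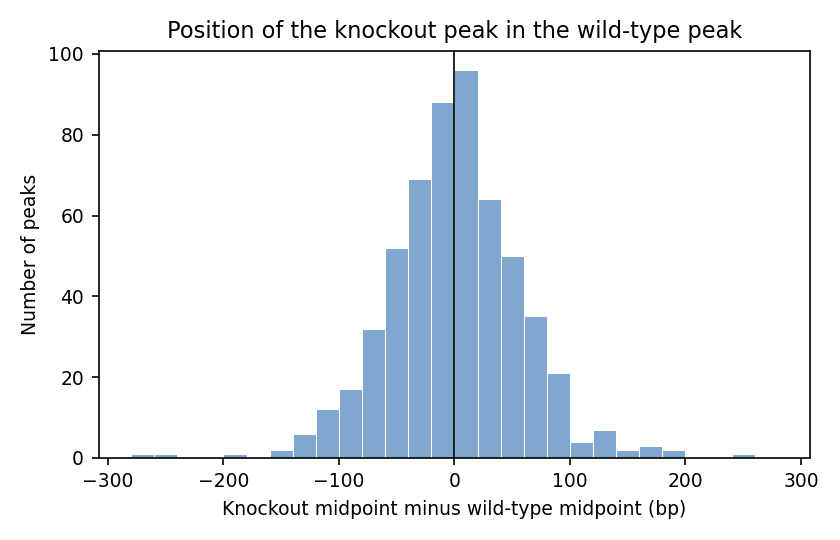
Number of members (y axis) by the distance in bp from the midpoint of the wild-type peak to that of its knockout partner (x axis, bins of 20 bp). The distances center on 0, with 281 members on the left and 282 on the right. Overlap chose the pairs, which limits these distances.

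In 3 members the wild-type interval overlapped 2 separate knockout peaks. They were chr10:125398187-125399162, chr7:56005397-56006082 and chr9:70108291-70108725. The first was the widest member at 976 bp, with scores of 771.63 and 88.14 for the partner with the larger overlap. Just outside the width limit, chr13:98231994-98233019 was 1026 bp wide and scored 719.07 against 103.34 in the knockout. At chr12:116855760-116856194 the knockout peak was 1044 bp wide and scored 355.37, against a wild-type score of 155.23. The smallest overlap of a member was 21 bp, at chr12:114887632-114887995, with scores of 114.8 and 56.25. Just outside the overlap limit, chr7:140331727-140332002 missed a knockout peak by 32 bp and scored 95.45, against 52.45 for that peak. In all, 39 of the 6545 wild-type peaks without a partner had a knockout peak less than 1 kb away.

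Over the whole list, crowding among other wild-type peaks differed between members and peaks without a partner by less than its counting error. Another wild-type peak lay less than 5 kb away for 112 members (19.8%, 16.6 to 23.3) and for 1260 of the 6545 others (19.3%, 18.3 to 20.2). The nearest wild-type peak was at a median distance of 31.9 kb (24.6 to 37.9) for members and 34.9 kb (33.3 to 36.7) for the others. At like score the intervals of the share with a neighbour overlapped in all 10 bins, which does not show that the shares were alike. Members had the lower share in each bin from 250.02 to 645.14. It was 19.3% against 27.8% between 250.02 and 300.79. Between 360.75 and 459.59 it was 17.9% against 23.3%, and between 465.28 and 645.14 it was 14.04% against 23.5%. Members had the higher share in the lowest and highest bins, between 131.61 and 170.59 and between 206.82 and 249.22. The largest gap between the shares was in the bin from 302.13 to 360.38, with 12.5% (5.18 to 24.1) of members and 30.9% (20.2 to 43.3) of the others.

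The members were spread over all 19 autosomes. By chromosome the share of wild-type peaks that were members ran from 5.56% (3.63 to 8.09) on chromosome 4, 25 of 450, to 10.8% (7.87 to 14.3) on chromosome 9, 42 of 390. The chromosome 9 count includes a run of 4 members at the start of that chromosome's sequence, described below. The exact interval held the overall 7.96% on all 19 chromosomes, which does not show that the shares were alike. Chromosome 4 also had the lowest median ratio of scores, 0.228 (0.201 to 0.264), and its interval alone left out the overall median of 0.304 (0.287 to 0.316). The median knockout score there was 59.06 (52.68 to 69.58), and the highest chromosome median was 77.13 (66.56 to 96.37) on chromosome 13. With 19 intervals of 95%, an interval that misses the overall value is not unusual.

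**Figure D5:**
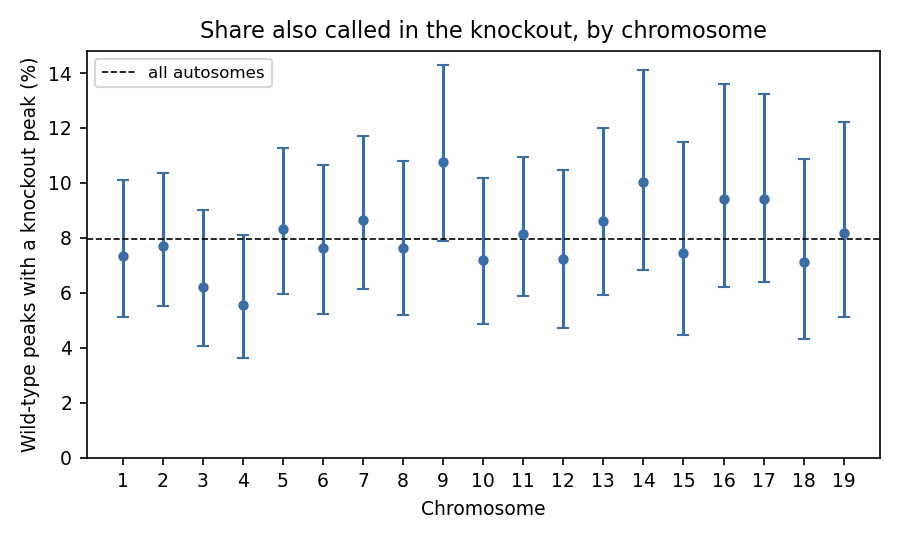
Percentage of wild-type peaks that overlapped a knockout peak (y axis) on each autosome (x axis). Points show the share and whiskers its exact 95% interval; all 19 intervals hold the dashed line at 7.96%.

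Most members stood alone, and the few runs of them differed in their scores. With gaps of up to 200 kb allowed, 414 of the 566 had no other member beside them, and 4 runs held 4 or more members. The largest, of 6, spanned chr13:31264291-31670732, where the lists held 13 wild-type and 6 knockout peaks. It began with the peaks that scored 1106.51, 865.06 and 1145.3 in the wild type, whose knockout scores of 157.13, 267.26 and 155.15 were given above. Next to them, chr13:31610275-31611091 scored 509.07 and 53.8, and chr13:31639386-31640141 scored 268.62 and 52.73. The last, chr13:31670435-31670732, scored 80.58 and 91.71. All 6 knockout peaks of the span were partners, and their order did not follow the wild-type order. Runs were not formed for other wild-type peaks, so the number of members that stood alone has no baseline.

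A run of 5 at chr12:116839798-116853995 had ratios of knockout to wild-type score from 0.597 to 1.24. From left to right the wild-type scores were 217.75, 98.73, 83.26, 97.17 and 275.88, and the knockout scores 135.29, 122.39, 70.29, 118.61 and 164.64. A run of 4 at chr6:133985087-134213683 had wild-type scores of 213.72, 58.51, 195.28 and 556.5 beside knockout scores of 117.42, 117.42, 79.91 and 56.27, the first 2 sharing their partner. Another run of 4, at chr9:3001936-3038419, lay among the wide peaks at the start of that chromosome's sequence, with wild-type scores of 144.71, 101.04, 96.74 and 109.82 and knockout scores of 86.3, 102.86, 77.52 and 131.21. The chromosome 12 and chromosome 9 runs lay in regions where the lists hold many neighbouring or wide peaks. Such regions held 11 members, with ratios from 0.596 to 1.24 and a median of 0.801, against 0.301 (0.281 to 0.312) for the other 555. The 11 had mostly low wild-type scores, from 81.99 through a median of 101.04 to 275.88. The median ratio of all members was 0.968 (0.902 to 1.02) between wild-type scores of 50.71 and 91.19 and 0.553 (0.496 to 0.585) between 92.25 and 131.17. The members of these regions that scored 83.26 and 81.99 had ratios of 0.844 and 0.757, below the median of their bin. The others lay above the median of theirs. Those that scored 275.88, 217.75 and 193.71 had ratios of 0.597, 0.621 and 0.690, against bin medians of 0.263, 0.304 and 0.310. The chromosome 12 region was drawn around its run of members with earlier results of these data known. The other regions were set around wide wild-type peaks that overlap wide knockout peaks, so overlap chose the regions as well as the members. The share of members among the wild-type peaks inside them was not computed. Without these regions the share of members was 7.83%, below the 7.96% with them, so the share inside them was the higher. The regions held only 11 members, so leaving them out moves the share over the whole list little.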

How the data were processed

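Peaks of 1 SOX2 ChIP library per genotype were used. Per the submitters' processing notes, reads went through Bowtie2 and MACS on build mm9; their versions and settings, and whether input served as control, are not stated there or elsewhere in the labels. The authors deposited a score for each peak, lowest at 50 (wild type) and 50.02 (knockout). The scores and the numbers of peaks depend on depth, which is unknown.

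Lists were limited to chromosomes 1 to 19 and to widths under 1 kb. Overlap was at least 1 bp, checked with bedtools 2.31.1 and tested on simulated data. Shares have exact Clopper-Pearson 95% intervals and medians exact order-statistic 95% intervals, which cover counting error only. With 1 library per genotype there was no test and no replicate error. Scores were binned into 10 equal groups of members. Python 3.11.15, NumPy 2.4.6, pandas 2.3.3 and SciPy 1.17.1 were used.

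Regions named are the 10 members highest by each score, the 5 with the highest and lowest ratios, the 3 with the lowest wild-type score, and those next to the limits. Others were picked after their values were seen. The members and rules were chosen with earlier results of these data known. A genome or annotation of mm9 was not used here, so planned promoter, gene list, motif and GC values were not computed and no sequence is printed.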

Additional observations from a re-analysis of the deposited data

How the results depend on the processing

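In 23 of 34 alternatives over 7 values, the value stayed inside its interval (counts: inside 1.5 times); 11 gave a value outside. The number of members ran from 399 to 581. With a reciprocal overlap of at least 50%, the share of wild-type peaks was 5.61%, the median scores were 227.52 (wild type) and 73.78 (knockout), and the median ratio was 0.345; by construction this drops pairs whose knockout peak covers less than 50% of the wild-type peak. With a wild-type score of at least 100, by construction, the share was 18.0%, the median wild-type score 276.43 and the median ratio 0.28, and 2 rather than 28 members had the higher score in the knockout. With a knockout score of at least 60, chosen after seeing the data, the share was 5.63% and the median scores 300.145 and 80.9. Without the regions of wide or repeated peaks (within 50 kb of overlapping wide peaks, or around the run of 5 on chromosome 12), no value left its interval. The mean width difference from wild-type-only peaks of like score was -13.5 bp, from -23.2 to -1.70 bp over its alternatives, all within the spread of the bins. Promoter, motif, GC and gene list alternatives were not run, for want of an mm9 genome and annotation here. Leaving out a replicate was not possible with 1 library each. No paired analysis was possible because each genotype has 1 library and no test was made.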

Other observations

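Among wild-type peaks near the start of the assembled chromosomes, the share of members was large and rests on few peaks. Of 15 that ended before 3.2 Mb, 8 (53.3%, 26.6 to 78.7) overlapped a knockout peak, against 7.96% in all. They lay on 5 chromosomes, and 4 of the 8 were outside the regions of wide or repeated peaks: chr12:3109830-3110137, chr16:3112051-3112190, chr17:3084009-3084487 and chr18:3008520-3008984. Median scores of the 8 were 94.0 (wild type) and 81.9 (knockout), and 5 had the higher score in the knockout, though equal scores have no set meaning across the lists. The limit of 3.2 Mb was set after these peaks had been seen, so the share has no test. Mouse chromosomes carry their centromeres at this end.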
